A study of Mus musculus with 36 samples.

Results

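The regions described here were stretches of the mouse genome that carried a peak of H3K4me3, histone H3 trimethylated at the lysine that marks active promoters, although no annotated gene began nearby. They were chosen by measured values, namely the positions, widths and recurrence of the called peaks. The autosomal H3K4me3 peaks of 12 mice were merged where they shared a base. A merged region was kept where it was narrower than 5 kb, lay more than 10 kb from every transcript start of the GENCODE M21 annotation of mm10, whatever the type of gene, and had a peak in at least 2 of the 12 mice. Of 33049 merged autosomal regions, 28847 had a peak in at least 2 mice, and 6793 of these were distal in this sense (23.5%). A further 1627 distal regions had a peak in 1 mouse, and 36 were at least 5 kb wide, and these were left out.

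The tissue was whole pancreas, taken 22 days after tamoxifen had been given by oral gavage to mice of every genotype, at an age of 2 to 4 months. The WT mice were labelled Wildtype. The EZ mice were Mist1creERT/+EZH2[delta]SET, in which the exons of Ezh2 that encode the catalytic SET domain can be excised, whereas the KR mice carried a different Cre-dependent allele, and the KE mice carried both. Each genotype had 3 mice, each a separate sample, and mice are named here by genotype and replicate number. Cre was expressed from the Mist1 locus, which within the pancreas is active in acinar cells, whereas the tissue held duct, islet, immune and stromal cells as well, and both sexes were used. In such bulk tissue fewer cells of a type and less of the mark per cell cannot be told apart.

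H3K4me3 is laid down by the SET1 and MLL methyltransferases and forms tall, often wide peaks over promoters, above all those rich in CpG dinucleotides. Enhancers, the distal elements that raise transcription of a gene from afar, usually carry the monomethylated form of the same lysine with little trimethylation, although strong enhancers in a tissue can carry both. A distal H3K4me3 peak can also mark a promoter that the annotation lacks, including promoters of noncoding RNAs and of transfer RNA genes. H3K27me3, the product of EZH2, is the repressive counterpart, and was mapped in the same mice.

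To show what such regions look like, the central 300 bases of 7 of them are given, read from the plus strand of GRCm38, the assembly also called mm10, in the RefSeq release. CpG dinucleotides are in capitals. The first 4 were taken for the highest ratios of observed to expected CpG among the regions present in all 12 mice. The next 2 were taken for having no CpG in these 300 bases.
chr15:102692724-102693023, intergenic, nearest coding gene Calcoco1: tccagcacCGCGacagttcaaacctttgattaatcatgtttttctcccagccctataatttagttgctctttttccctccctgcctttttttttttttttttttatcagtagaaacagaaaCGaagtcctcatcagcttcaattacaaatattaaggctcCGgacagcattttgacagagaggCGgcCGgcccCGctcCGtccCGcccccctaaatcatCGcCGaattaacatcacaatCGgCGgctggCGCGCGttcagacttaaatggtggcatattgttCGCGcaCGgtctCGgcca
chr10:57448107-57448406, intergenic, nearest coding gene Hsf2: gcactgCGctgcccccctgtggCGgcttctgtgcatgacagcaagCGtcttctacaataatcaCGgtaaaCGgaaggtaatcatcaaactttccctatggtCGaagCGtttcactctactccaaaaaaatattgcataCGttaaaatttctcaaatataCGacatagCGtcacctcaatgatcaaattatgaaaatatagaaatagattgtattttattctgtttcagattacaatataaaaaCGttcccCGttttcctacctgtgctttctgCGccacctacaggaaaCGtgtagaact
chr4:115962972-115963271, intergenic, nearest coding gene Dmbx1: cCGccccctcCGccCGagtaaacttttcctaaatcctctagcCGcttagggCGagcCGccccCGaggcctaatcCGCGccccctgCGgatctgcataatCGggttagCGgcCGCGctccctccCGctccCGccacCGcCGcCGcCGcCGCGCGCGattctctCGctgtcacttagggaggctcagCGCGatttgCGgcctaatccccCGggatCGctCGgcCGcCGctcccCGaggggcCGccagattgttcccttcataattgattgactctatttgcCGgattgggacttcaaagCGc
chr6:47668246-47668545, intergenic, nearest coding gene Ezh2: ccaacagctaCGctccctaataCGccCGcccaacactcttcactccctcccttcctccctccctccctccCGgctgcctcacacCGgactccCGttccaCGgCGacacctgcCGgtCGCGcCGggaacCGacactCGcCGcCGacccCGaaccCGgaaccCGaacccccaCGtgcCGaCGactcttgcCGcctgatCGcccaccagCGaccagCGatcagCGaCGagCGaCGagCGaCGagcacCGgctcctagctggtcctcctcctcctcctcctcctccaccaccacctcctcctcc
chr4:150372867-150373166, intron of Rere: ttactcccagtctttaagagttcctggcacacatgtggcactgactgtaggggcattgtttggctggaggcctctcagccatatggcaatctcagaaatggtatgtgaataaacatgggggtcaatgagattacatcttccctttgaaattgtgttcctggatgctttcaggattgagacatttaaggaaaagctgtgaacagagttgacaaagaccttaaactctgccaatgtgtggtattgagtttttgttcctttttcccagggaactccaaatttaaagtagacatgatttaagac
chr3:52045698-52045997, intron of Maml3: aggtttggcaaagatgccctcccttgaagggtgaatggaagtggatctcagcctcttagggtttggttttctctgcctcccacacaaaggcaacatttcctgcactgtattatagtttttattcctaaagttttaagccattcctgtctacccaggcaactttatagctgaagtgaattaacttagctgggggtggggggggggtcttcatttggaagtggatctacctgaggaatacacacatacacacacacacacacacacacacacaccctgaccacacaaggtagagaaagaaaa
The last lay in a region whose presence followed the Ezh2 allele and is taken up again with the genotypes.
chr8:92772253-92772552, intergenic, nearest coding gene Mmp2: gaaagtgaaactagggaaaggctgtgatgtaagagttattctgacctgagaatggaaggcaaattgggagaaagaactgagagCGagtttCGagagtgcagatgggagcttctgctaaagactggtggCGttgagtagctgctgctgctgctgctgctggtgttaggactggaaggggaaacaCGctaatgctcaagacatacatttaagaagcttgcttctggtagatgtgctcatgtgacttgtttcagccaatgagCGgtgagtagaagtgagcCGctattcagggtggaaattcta

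The windows near Calcoco1, Hsf2 and Dmbx1 held 20, 14 and 37 CpG dinucleotides, with ratios of observed to expected of 1.23, 1.21 and 1.20. Their regions were 1611, 773 and 1212 bases wide. The regions in introns of Rere, a transcriptional corepressor, and of Maml3, a Notch coactivator, were wider, at 3855 and 3854 bases, and had a peak in the same 12 mice. High CpG content was therefore not a property of every region that all mice shared.

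The number of distal regions with a peak was 4701, 1422 and 4503 in WT1, WT2 and WT3. It was 5241, 4690 and 4851 in EZ1, EZ2 and EZ3. It was 3425, 4750 and 3984 in KR1, KR2 and KR3, and 3498, 5257 and 4357 in KE1, KE2 and KE3. The WT2 mouse lay far below the others, and the ranges of the other genotypes overlapped. Per 100 autosomal peaks, WT2 had 8.41 distal regions and the other 11 mice had 15.2 to 20.8. The WT2 list was also the shortest, with 17400 peaks against 21815 to 26081 in the others. The deposited lists gave positions without read counts, so the depth behind each list is unknown.

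**Figure D1:**
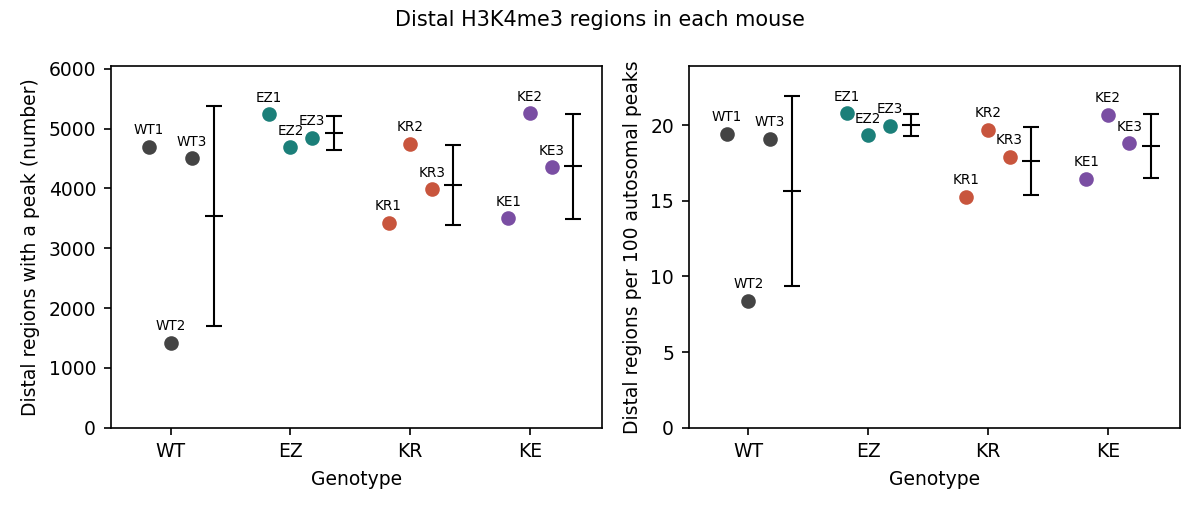
Each point is 1 mouse, with the number of distal regions in which it had a peak on the left and that number per 100 of its autosomal H3K4me3 peaks on the right, and the bars beside the points are the mean and SD of 3 mice. WT2 stands at 1422 regions, and the other 11 mice lie between 3425 and 5257.

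The regions recurred far less than regions at gene starts. All 12 mice had a peak in 796 distal regions (11.7%), against 75.7% of the 15449 regions within 1 kb of a transcript start. At the other end, 1586 distal regions (23.3%) had a peak in 2 or 3 mice. WT2 decided much of this distribution, because 1374 of the 1426 regions found in exactly 11 mice lacked a peak only there. Counted over the other 11 mice, 2170 regions (31.9%) had a peak in every one. Of the 6793 regions, 4291 (63.2%) had a peak in at least 1 mouse of each of the 4 genotypes, and 186 (2.74%) in mice of a single genotype. These shares were not counted over all regions, so they are not shown to be particular to distal regions.

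**Figure D2:**
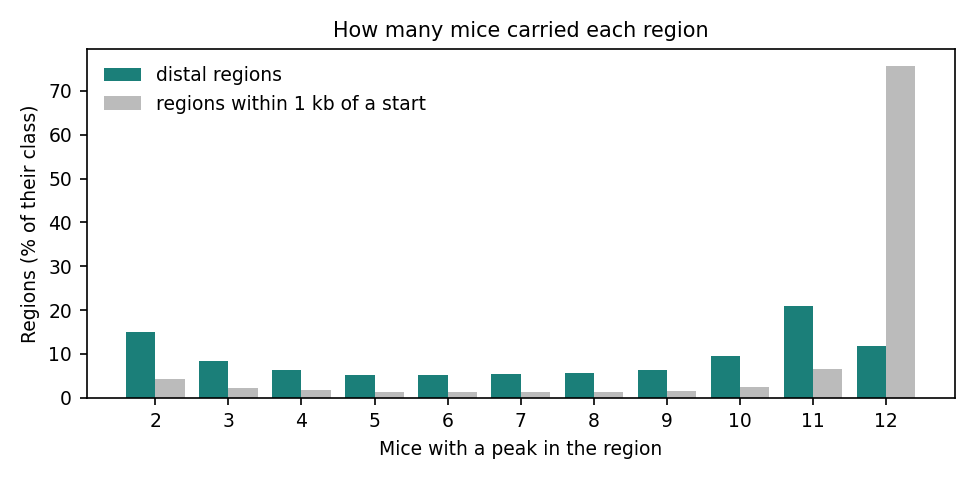
Bars give the share of regions (%) found in each number of mice, from 2 to 12, for distal regions (green) and for regions within 1 kb of a transcript start (grey). Distal regions spread over all numbers, with 11.7% in all 12 mice, whereas 75.7% of the start regions were in all 12.

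WT2 differed from the other mice in which regions it had as well as in their number. Of its 1422 distal regions, 1400 (98.5%) also had a peak in KR1, against 62.4% to 70.7% in each of the other 10 mice. Among the 1021 regions found in exactly 2 mice, 334 were shared by WT2 and KR1, whereas the next largest pair, EZ1 and KE2, shared 59, and the median of the 65 other pairs was 6. The nearest coding genes of these 334 regions were scattered, with at most 5 regions at a gene. Ets1 had 5, Bach2 and S1pr1 had 4 each, and Ptk2b, Rap1b and Tbl1xr1 had 3 each.

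Markers of immune cells moved with the same mice. Of 17 immune genes, a peak lay within 3 kb of a start for 11 in WT2 and 13 in KR1, for 6 in KE1 and for 3 to 5 in the other 9 mice. The T cell gene Cd3e, the B cell genes Cd79a and Ms4a1 and the myeloid and B cell factor Spi1 were marked in WT2 and KR1 and in no other mouse. Itgam, Adgre1, Csf1r and Lyz2, which mark myeloid cells and macrophages, were marked in none of the 12, whereas the macrophage gene Cd68 was marked in all of them. The starts of 16 acinar regulators were marked in all 12 mice, and 27 to 29 of 31 autosomal acinar enzyme genes were marked in each, WT2 and KR1 included. Of 13 duct genes, 10 were marked in WT2 and 12 or 13 in the other mice. Of 15 autosomal islet genes, 5 were marked in WT2 and 7 or 8 in the others. Counts at pancreatic genes were lowest in WT2, which had a peak in 20.9% of all distal regions, against 50.4% in KR1 and 51.5% to 77.4% in the others. Of 28 distal regions nearest to acinar regulators, WT2 had a peak in 2, KR1 in 8 and the other mice in 12 to 23. Of 23 nearest to duct genes, the counts were 1 in WT2, 11 in KR1 and 11 to 22 elsewhere. KE1 had the same count of 11 at duct genes as KR1. The part of immune cells in these counts was not tested, and genotype differences are given with and without WT2 or both mice.

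**Figure D3:**
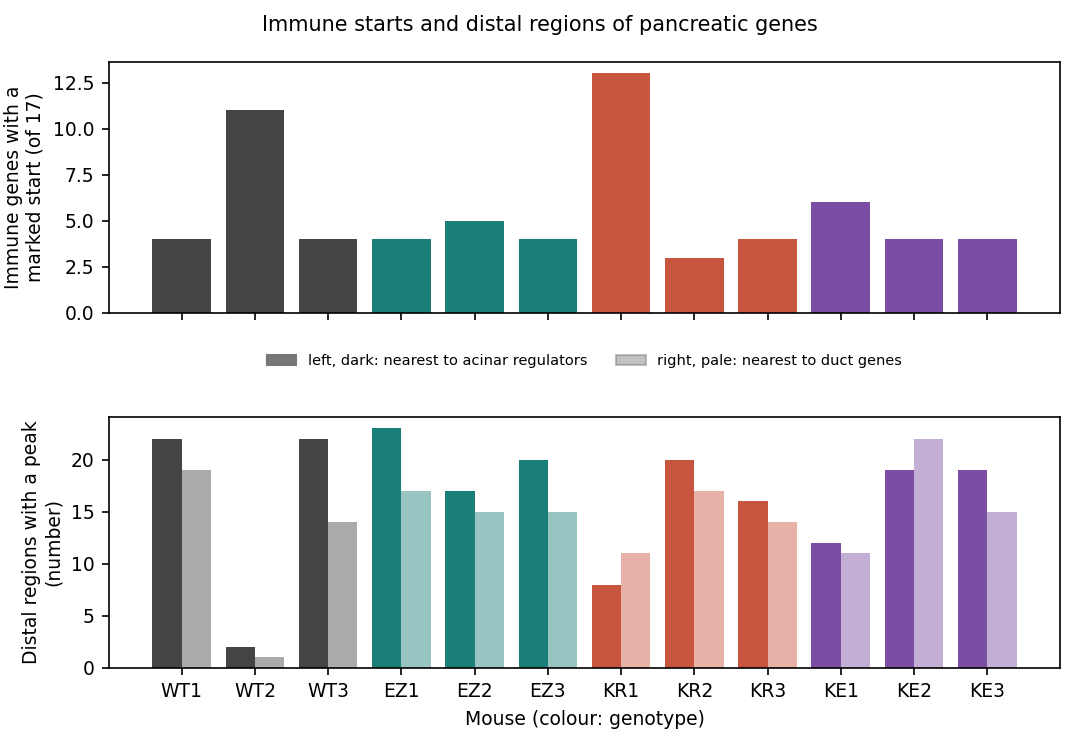
The upper bars count the immune genes, of 17, with a peak within 3 kb of a start in each mouse, and the lower bars count the distal regions with a peak whose nearest coding gene was an acinar regulator (dark, of 28) or a duct gene (pale, of 23). WT2 and KR1 stand out with 11 and 13 immune genes, and WT2 has 2 and 1 of the distal regions.

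Distal regions were narrow. Their median width was 1050 bases, with 80% of them between 641 and 1948, against a median of 2339 for start regions. Width was larger with recurrence, from a median of 731 bases in regions found in 2 or 3 mice to 1322 in those found in 10 or 11 and 1570 in those found in all 12. A union over more peaks cannot be narrower than its parts, so some of this rise is built into the merging. The widths of the single peaks do not share this feature, and their median in a mouse ranged from 779 to 903 bases, against 1927 to 2077 for peaks at starts. Between 17.2% and 25.4% of the distal peaks of a mouse were 501 bases wide, the smallest width in the lists.

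Composition set the fully shared regions apart. The median ratio of observed to expected CpG in the central 300 bases was 0.32 in all distal regions, 0.14 in windows drawn every 1000 bases from the rest of the genome more than 10 kb from a start, and 0.60 in start regions. It was between 0.29 and 0.32 in the classes found in 2 to 11 mice and 0.46 in regions found in all 12. Regions with a GC content over 50% and a ratio over 0.6 numbered 373 (5.49%) among all distal regions and 164 of 796 (20.6%) among those in all 12 mice. The same share was 45.7% in start regions and 0.326% in the windows. More than 50% of the central bases were masked repeats in 4.58% of distal regions, against 27.6% of the windows.

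**Figure D4:**
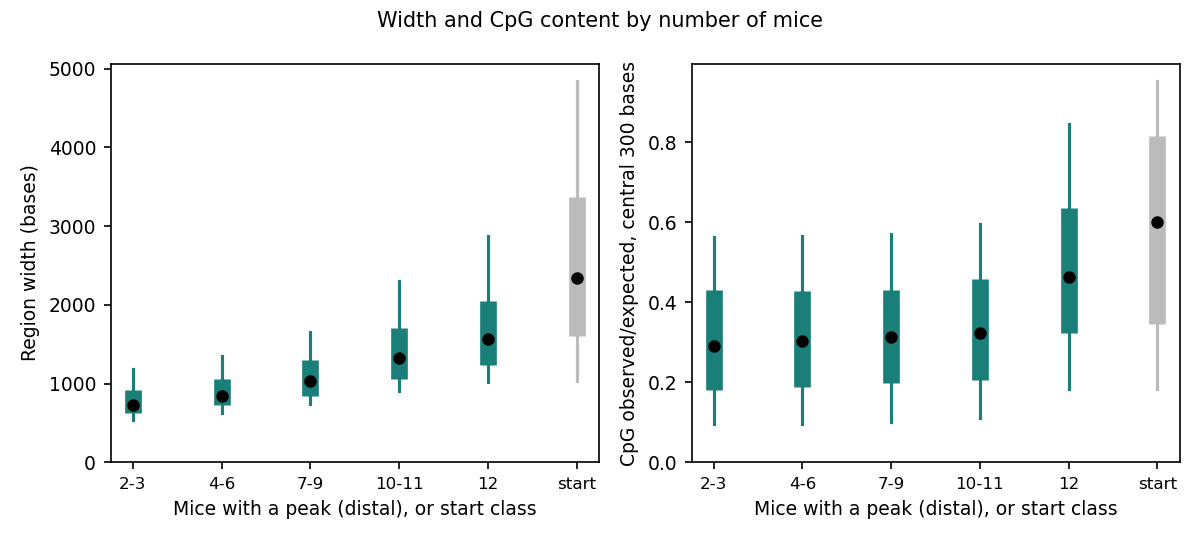
Black points are medians, thick bars the middle 50% and thin lines the middle 80% of regions, for region width in bases (left) and the ratio of observed to expected CpG in the central 300 bases (right), by the number of mice with a peak, with start regions in grey. Median width climbs from 731 to 1570 bases, and median CpG stays near 0.3 up to 11 mice and is 0.46 in 12.

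The 1374 regions that only WT2 lacked had a median width of 1353.5 bases, between the 1570.5 of the 796 found in all mice and the 1050 of all distal regions. Their median CpG ratio was 0.34, 3.93% were CpG-rich by the same limits, and 49.3% were intronic, against 29.4% of the fully shared regions. The 334 regions of WT2 and KR1 alone had a median ratio of 0.30, and 0.898% were CpG-rich.

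Of the distal regions, 3267 (48.1%) lay in introns, 3029 (44.6%) between genes and 497 (7.32%) touched an exon more than 10 kb from any start. The genome more than 10 kb from a start was 38.0% intronic, 60.4% intergenic and 1.61% exonic, but those are shares of bases, whereas a region was called exonic if any of its bases touched an exon, so the exonic shares are not comparable. Distal regions covered 0.556% of that space. Density was highest on chromosome 19, with 7.00 regions per Mb of eligible sequence, and lowest on chromosome 1, with 3.34. The median distance to the nearest start of any kind was 22180 bases, and to the nearest protein-coding start 33190. The 10 kb limit was met most closely by chr4:52372215-52372978, 10004 bases from a pseudogene, and missed most closely by chr5:136148779-136149918, 9998 bases from Alkbh4. At the width limit stood chr2:174611885-174616823, 4939 bases wide and present in WT2, KR1 and KE1, and, just outside, chr2:19486883-19491946, 5064 bases wide and 41.2 kb from Ptf1a.

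Some of the regions lay at starts in a second annotation. A RefSeq transcript began within 1 kb of 430 distal regions (6.33%), among them 276 starts of long noncoding RNAs and 137 of messenger RNAs, and 37 of the 430 were curated rather than predicted. The share was 15.6% among regions found in all 12 mice and 5.23% among those found in 2 or 3. A total of 5420 regions (79.8%) were more than 10 kb from every RefSeq start as well.

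Transfer RNA genes, which the main GENCODE set does not list, lay in a small group of regions, most of them present in every mouse. RefSeq places 386 of them on the autosomes, and 41 lay inside 29 distal regions. All 12 mice had a peak in 21 of the 29, and single mice in 22 to 29, with 22 in WT2. On chromosome 13, beside the histone gene clusters, were 13 of them. The region chr3:96499158-96503532, 4375 bases wide, held 4 such genes, for glutamic acid, glycine, histidine and lysine, and chr1:171101549-171103813 held 4 for aspartic acid, glutamic acid, glycine and leucine. Transfer RNA genes were looked up after the positions of the shared regions had been seen.

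A second small group was an array of near copies on chromosome 6. Between 47650516 and 47686596, 9 regions had a peak in all 12 mice, WT2 included, and after a gap of 54.6 kb between midpoints came 7 more with the same property. Coding genes lay far from them, Ezh2 at 55.2 to 89.5 kb from the first set and Pdia4, a protein disulfide isomerase, at 44.6 to 72.2 kb from the second. Of the 15 gaps between the midpoints of neighbours, 13 were between 4 and 5 kb, with a median of 4.37 kb. All 16 were CpG-rich, with ratios from 0.86 to 1.17, and one of them is the fourth sequence given above. Of the stretches of 25 bases in its central window, 80.1% recurred in another of the 16 windows, and for the others this share was 0% in the first and 74.3% to 100% in the rest. Reads from such copies cannot be placed with certainty, so the peaks of single copies are uncertain.

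The 10 widest regions found in all 12 mice ran from 4184 to 4836 bases. The widest, chr5:35157099-35161934, was intergenic, 51.3 kb from Lrpap1, a chaperone of lipoprotein receptors, and a predicted RefSeq noncoding RNA began inside it. The next, chr9:32020665-32025482, lay 90.7 kb from the GENCODE start of Arhgap32 and 4.035 kb from a RefSeq start of the same gene. A pair on chromosome 11, chr11:94169844-94174566 and chr11:94158812-94163384, lay 36.9 and 48.1 kb from Tob1, an antiproliferative gene, and the second overlapped an element with enhancer activity in the embryonic forebrain and hindbrain. Each region of the pair held a RefSeq start of the noncoding RNA Gm35338. The others included an exonic region of Mapt, a microtubule-binding protein, at 4648 bases with a RefSeq start of that gene at 2.509 kb, an exonic region of Tmem44 at 4462 bases, an intronic region of Nav2 at 4459 bases with a RefSeq start of that gene inside it, and one 21.7 kb from Actb, which encodes beta-actin, at 4184 bases. The remaining members of the 10 were a region 70.4 kb from Csf3r at 4472 bases and the transfer RNA region of chromosome 3. The width of a merged region can rest on few mice. In the region near Actb, chr5:142928498-142932681, the peak was 4062 bases wide in KR1 and had a median of 1144.5 over the 12 mice, and in that of Nav2, chr7:49522108-49526566, widths ran from 806 to 4459 with a median of 1629. In the transfer RNA region chr3:96499158-96503532 they ran only from 3881 to 4375.

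Each region was assigned to the nearest protein-coding start. Of 20780 autosomal coding genes, 3487 (16.8%) were nearest to at least 1 distal region, 2044 to exactly 1, and 26 to at least 10. Genes with at least 5 regions had a median length of 152 kb, against 14.7 kb for genes with none, so gene length has to be read beside these counts. The gene with most regions under these limits was Arid1b, a subunit of the SWI/SNF chromatin remodeller, with 23 regions, 16 of them inside the gene on chromosome 17. Per mouse, 16, 4 and 13 of the 23 had a peak in WT1 to WT3, 20, 19 and 17 in EZ1 to EZ3, 13, 18 and 16 in KR1 to KR3, and 14, 21 and 16 in KE1 to KE3. Among the 23, 4 had a peak in all 12 mice, including chr17:4906612-4909412 at 84.9 kb upstream with a CpG ratio of 0.90. Pde4d, a cyclic AMP phosphodiesterase, followed with 17, Nfib, a transcription factor, with 16, Igf1r, the receptor of insulin-like growth factor, with 14, and Prkce, a protein kinase C, with 14. WT2 had a peak in 5, 1, 1 and 6 of these, in that order. The order depended on the limits, since with gene starts alone Pde4d had 25 regions and Arid1b 23. With a limit of 20 kb from a start Nfib had 16, Pde4d 13, Igf1r, Prkce and Sox9 12 each, and Arid1b 11.

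Genes near distal regions mostly had a marked start themselves. In each mouse 84.6% to 87.2% of its distal regions had a nearest coding gene with an H3K4me3 peak within 3 kb of a start, against 61.8% to 64.8% of all autosomal coding genes. Where a region lay inside a coding gene at its midpoint, as 3410 did, that gene also had the nearest coding start for 2964 (86.9%).

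Sox9, the transcription factor of duct cells, is a short gene with many distal regions. It spans 5.54 kb of chromosome 11, and 13 distal regions had it as nearest coding gene, none inside it, at 27.98 to 837 kb. In WT1, WT2 and WT3, 11, 1 and 7 of the 13 had a peak. The counts were 9, 9 and 8 in EZ mice, 6, 10 and 9 in KR mice and 6, 13 and 9 in KE mice. The nearest, chr11:112810204-112811622, had a peak in every mouse but WT2, and chr11:113100525-113102671, 318 kb away in an intron of the noncoding gene 2610035D17Rik, in all 12. In all, 7 of the 13 lay in that noncoding gene.

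The regions assigned to Myc, the growth-promoting transcription factor, were likewise remote. All 10 lay beyond the gene on chromosome 15, at 141 to 726 kb, and 7 of them inside Pvt1, the noncoding gene that follows Myc. The widest, chr15:62344410-62347383 at 2974 bases, had a peak in all mice but WT2, as did 3 others of Pvt1, and WT2 had a peak in none of the 10.

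Among fixed gene lists, the one of acinar regulators had distal regions at 10 of 16 genes, 28 in all, against 16.8% of all coding genes. Nr5a2, a nuclear receptor of acinar cells, had 8 and Foxa2, a forkhead factor of the endoderm, 7. Of the regions of Nr5a2, 3 had a peak in all mice but WT2, among them chr1:136894673-136896991 in its intron, 43.6 kb from a coding start. Ptf1a, the factor that directs acinar fate, had a single one, chr2:19414472-19415442, 971 bases wide and present in all 12 mice. That region lay 30.2 kb from Ptf1a and 311 bases from a RefSeq start of the noncoding RNA Gm33940. Creb3l1, a factor of the secretory pathway, had chr2:92006675-92010673, 3999 bases wide and also in all 12. Acinar enzymes had distal regions at 6 of 31 genes, 9 in all, among them Pnlip, Ctrb1, Amy1, Cpb1 and Try5. The region 10.7 kb from Amy1, an amylase gene, chr3:113548288-113551341, had a peak in all 12 mice. Amylase and trypsinogen genes lie in families of near copies, so the placement of peaks near them is uncertain. Placement near the other enzyme genes was not checked.

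Of 13 duct genes, 6 had distal regions, 23 in all, with 13 at Sox9. The list of ERK output genes, which respond to ERK signalling, had them at 14 of 19 genes, 40 in all. Beside Myc, Spred2, an inhibitor of ERK signalling, had 5, and Phlda1 and Spry2 had 4 each. Fos, an immediate early gene, had 3, of which chr12:85485323-85488200 and chr12:85454638-85456453 had a peak in all 12 mice, and the latter overlapped an element active in the embryonic heart. Chromatin writers had distal regions at 4 of 14 genes, 20 in all, of which 9 were the array nearest to Ezh2 and 9 were nearest to Jarid2, a cofactor of PRC2. Islet genes had them at 6 of 15, with 8 in all, stromal and vessel genes at 6 of 13 with 8, fat genes at 1 of 5 with 1, and immune genes at 4 of 17 with 13. Of the 7 regions nearest to Ets1, 5 had a peak in WT2 and KR1 alone and 2 in all 12 mice. Members of a list that are nearest to several regions share their position, so these counts are not independent.

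Elements tested as enhancers and recorded in RefSeq overlapped 72 distal regions (1.06%). Activity in a tissue of the embryo was recorded for those at 66, most often midbrain and hindbrain with 23 each and heart with 16. Among all 617 active elements on the autosomes, 158, 140 and 159 were listed for these tissues. Of the 66 regions, 38 had a peak in 11 or 12 mice. None of the 617 elements with recorded activity on the autosomes was listed for pancreas, so that tissue could not be assessed.

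Motifs were searched on both strands of the central 300 bases. GGGCGG, the core of GC boxes, was present in 10.98% of distal regions, 23.5% of those in all 12 mice, 37.3% of start regions and 2.12% of the windows. CAGCTG, an E-box that occurs within CANNTG, was in 22.3% of distal regions and 9.98% of the windows, and CANNTG itself in 80.3% and 79.9%. TGTTTAC, a forkhead motif, was in 7.89% against 4.57%, and TCAAGGTCA, a motif of nuclear receptors, in 0.810% against 0.576%. The letters AGATAAG, a motif of zinc finger factors such as Gata4 and Gata6, were in 6.48% against 4.55%. TGANTCA of AP-1 was in 9.20% against 9.03%, and TGGGAA of RBPJ in 28.3% against 23.7%. CCGGAAGT of ETS factors was in 0.633% against 0.144%, the CTCF core in 0.309% against 0.0538%, and TATAAA in 16.9% against 28.8%. Distal regions had a higher GC content than the windows, with medians of 46.7% and 40.7%, which alone changes how often such letters occur.

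H3K27me3 rarely overlapped the distal regions. Over the whole set, no mouse had an H3K27me3 peak over 6337 of them (93.3%), against 82.9% of start regions. Among the distal regions with an H3K4me3 peak in the same mouse, 8.09% had H3K27me3 in WT2, 3.04% in KR1 and 0.511% to 1.53% in the other 10 mice. The same order held at start regions, with 13.6% in WT2, 5.52% in KR1 and 0.810% to 3.07% in the others. In 78 regions at least 6 mice had H3K27me3, and 59 of these were intergenic. The median CpG ratio of the 78 was 0.57, against 0.31 in regions without H3K27me3. In all, 10 regions had it in all 12 mice. The 5 widest of these were chr7:70280150-70281150, 74.1 kb from the nuclear receptor gene Nr2f2, chr5:106560684-106561676, 47.4 kb from Gm17304, chr17:85454551-85455516 in an intron of Camkmt, 158 kb from the homeobox gene Six3, chr5:67222267-67223215, 37.4 kb from Tmem33, and chr13:116707382-116708270, 217 kb from Parp8. They had H3K4me3 in 4, 8, 11, 10 and 4 mice, and in none of the 5 in WT2.

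The genotypes were compared to ask whether loss of the EZH2 SET domain changed the distal regions. EZ and KE were set against WT and KR, 6 mice against 6, with labels exchanged within the pairs of genotypes EZ with WT and KE with KR. None of the exact two-sided permutation tests passed after Benjamini-Hochberg adjustment over 8 tests, of which the 4 of the Ezh2 allele are given. Mice with the Ezh2 allele had a mean of 4649 distal regions with a peak, against 3797.5, a difference of 851.5 in which 5 of 6 mice shared the direction (exact permutation p = 0.185, adjusted p = 0.507). The difference was 1385 between EZ and WT and 318 between KE and KR. Without WT2 it was 378, and without WT2 and KR1 it was 157.

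None of the other measures per mouse passed the test. Distal regions were 19.3% of autosomal peaks with the Ezh2 allele and 16.6% without it (adjusted p = 0.507 by the same exact permutation test). The difference of 2.70 points was 1.14 without WT2 and 0.264 without WT2 and KR1. The median width of distal peaks was 830 bases with the allele against 820 without it (adjusted exact permutation p = 0.98), and the difference was 25.2 bases without WT2 and 24.25 without both mice. The share with H3K27me3 was 1.00% with the Ezh2 allele and 2.50% without it, below the mean of the mice without it in 6 of 6 mice (exact permutation p = 0.305, adjusted p = 0.61). Without WT2 and KR1 this difference was 0.0362 points in the other direction.

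Overlap between mice of the same genotype did not pass a test against overlap between genotypes. The Jaccard index, the regions 2 mice shared divided by those either had, averaged 0.598 within genotypes and 0.591 between them, a difference of 0.00713 (exact permutation p = 0.737 over 15400 assignments). Pairs with WT2 had indices of 0.165 to 0.406, the highest with KR1, and pairs without it 0.476 to 0.792, the highest for EZ1 with KE2. Without WT2, over the same regions, the difference was 0.0146 (exact permutation p = 0.351), and without WT2 and KR1, with regions merged anew, it was 0.0192 (exact permutation p = 0.0827).

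**Figure D5:**
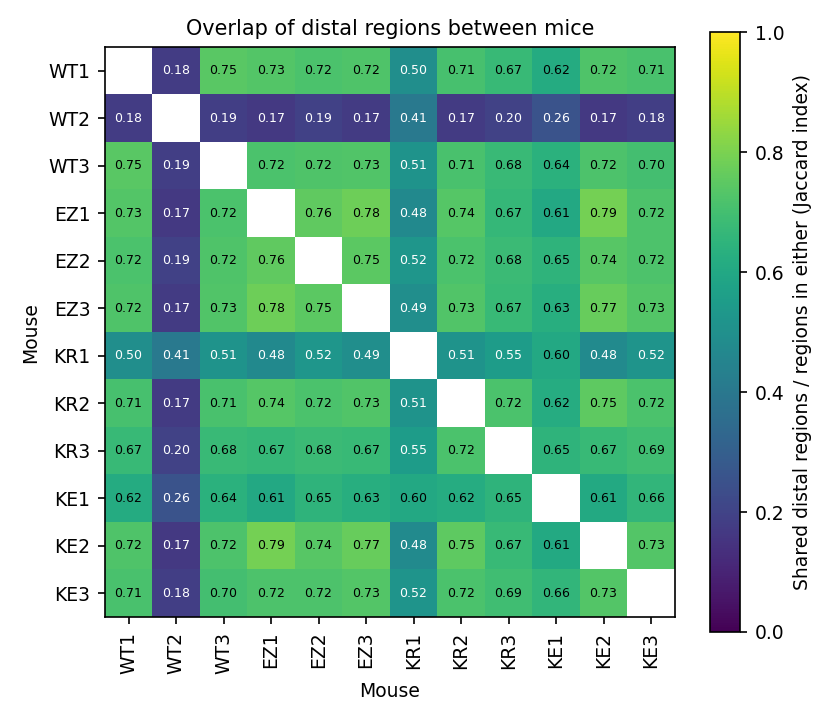
Each cell gives the Jaccard index of the distal regions of 2 mice, the number shared divided by the number in either, on a colour scale from 0 to 1. The row of WT2 is darkest, with its highest value, 0.41, at KR1, and the remaining pairs run from 0.48 to 0.79, with the 3 pairs of EZ mice between 0.75 and 0.78.

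Region by region, Fisher's exact test across all 28847 regions found no distal region whose presence differed after adjustment between mice with and without the Ezh2 allele, with 0% of all regions called. The smallest possible p of this test, 0.00216, would have had to occur in 1249 regions for an adjusted p under 0.05, so the design could hardly give a call. At an unadjusted p under 0.05, 38 distal regions (0.559%) had a peak in more mice with the Ezh2 allele, against 0.309% of all regions, and 6 (0.0883%) in fewer, against 0.0659%. Both directions together, 44 distal regions, became 52 without WT2 and 89 without WT2 and KR1. Regions present in all 12 mice cannot be called here or in the counts below. They were 11.7% of distal regions but 75.7% of start regions, so the shares of distal and all regions differ in what could be called.

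A peak in all 6 mice with the Ezh2 allele and none without it was found in 4 distal regions (0.0589%), against 0.0243% of all regions, and the reverse in 3 (0.0442%), against 0.0208% (Fisher's exact p = 0.00216, adjusted p = 1 for each). The 5 widest of the 7 are described. Present in all EZ and KE mice were chr8:92771787-92773018, the seventh sequence above, and chr1:78412406-78413433 in an intron of Sgpp2, a sphingosine phosphatase. The first lay 54.3 kb from Mmp2, a matrix metalloproteinase, with peaks of 1056, 1091 and 1076 bases in EZ mice and 1182, 1048 and 1103 bases in KE mice. Its H3K27me3 showed another pattern, with a peak in all 3 KR mice, in EZ2 and in no WT or KE mouse. In the Sgpp2 region, peaks were 911, 501 and 799 bases wide in EZ mice and 501, 501 and 631 bases in KE mice, 3 of them at the smallest width.

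Absent from all EZ and KE mice were chr15:36979404-36980515, 21.5 kb from Zfp706, and a pair on chromosome 18, chr18:10687133-10689964 in an intron of Abhd3 and chr18:11644481-11646230 in an intron of Rbbp8. The Abhd3 region, 2832 bases wide, had peaks of 2813, 1076 and 2190 bases in WT mice and of 958, 1702 and 1210 bases in KR mice. In the Rbbp8 region, near a gene of DNA end resection, the peaks were 1750, 910 and 1453 bases wide in WT mice and 1373, 1334 and 865 bases in KR mice.

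EZ and WT were also compared by regions with a peak in all mice of one and none of the other. A peak in all 3 EZ and no WT mouse was found in 160 distal regions (2.36%), against 1.24% of all regions, and the reverse in 9 (0.132%), against 0.111%. Here too, regions present in every mouse, more common among start regions, could not be called. With WT1 and WT3 alone as controls, the counts were 166 (2.44%, against 1.4%) and 95 (1.40%, against 0.867%). The rule for WT is looser with 2 mice than with 3, so each of the other WT mice was left out in the same way. Without WT1 the counts were 356 (5.24%, against 2.91%) and 13 (0.191%, against 0.201%), and without WT3 they were 329 (4.84%, against 2.52%) and 11 (0.162%, against 0.184%).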

How the data were processed

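Read quality was checked with FastQC, alignment to mm10 used Bowtie2, and for each sample HOMER findPeaks in histone mode called enrichment over the input. The versions of these tools are not given in the sources used here. The authors deposited a list of peak positions per sample, without counts or scores, which is the only unit used; the 12 H3K4me3 and 12 H3K27me3 lists were read, and the 12 input samples were not analysed here. Distances, introns and exons come from GENCODE M21, sequences, transfer RNA genes and tested enhancers from RefSeq on GRCm38. The nearest coding gene is that of the nearest protein-coding transcript start. Values per mouse were compared by exact permutation, and presence per region by Fisher's exact test over 28847 regions with Benjamini-Hochberg adjustment, both tested on simulated data (scipy 1.17.1, with pandas 2.3.3 and numpy 2.4.6 under Python 3.11.15). Members, gene lists and tests were chosen with earlier results of these data known. Named regions were the 10 widest in all mice, the 5 of smallest p for the Ezh2 effect, up to 30 nearest to genes on lists of acinar enzymes, acinar regulators, duct, islet, immune, stroma and vessels, fat, ERK output and chromatin writers, those at the limits and the 5 widest with most H3K27me3, besides the 5 genes with most regions. Sox9, Myc, Ets1 and other genes outside this, the transfer RNA genes, the chromosome 6 array the pair WT2 and KR1 and the counts without WT1 or WT3 were chosen after values were seen. Sequences from chromosome 18 were not considered. The effect of the second allele and results of some genes are not reported here.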

Additional observations from a re-analysis of the deposited data

How the results depend on the processing

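Of the alternatives, a limit of 20 kb from a start left 3790 distal regions, peaks of at least 1000 bases left 2570, and equal numbers of the widest peaks per mouse left 3334. Leaving out 1 mouse gave 6415 to 6774. No alternative gave a genotype call. The lowest p used for a call was an exact permutation p of 0.0736, for the similarity within genotypes without 1 mouse. It was not adjusted, because the similarity was a single test. The Ezh2 difference in width changed sign with gene starts only (-8.25 bases) and with peaks of at least 1000 bases (-8.92). With equal numbers of the widest peaks per mouse, the Ezh2 difference in number was 243.8 (adjusted exact permutation p = 0.57). With both WT2 and KR1 left out, a choice made after seeing the data, the Ezh2 difference in H3K27me3 share was 0.0362 points. The cause was not tested. Without single mice, the Ezh2 difference in number was 378.25 (without WT2) to 1137.25, in share 1.14 (without WT2) to 3.64, in width -1 to 25.2 (without WT2) and in H3K27me3 share -2.14 to -0.277 (without WT2), and the similarity difference was -0.0206 to 0.0520. Regions in all lists made up 33.6% without WT2, 40.6% without WT2 and KR1, and 7.61% with presence by 50% cover. At an unadjusted p under 0.05, 44 distal regions differed by the Ezh2 allele, against 52 to 112 without 1 mouse, the highest without KE1. Same-numbered mice of different genotypes had correlations of -0.340 to 0.288, so the numbers were not taken to pair them. With a replicate block the Ezh2 difference in number had an exact permutation p of 0.03125 and an adjusted p of 0.125, and no block result passed adjustment. The lists held no counts, so weak peaks and low depth cannot be told apart, and with 6 mice against 6 the test per region could hardly give a call.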
